A study of Caenorhabditis elegans with 12 samples.

Results

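UDP-glucuronosyltransferases and glutathione S-transferases are enzymes that attach a sugar or the tripeptide glutathione to small molecules, which makes those molecules more soluble and easier to export. In *Caenorhabditis elegans* they are encoded by the ugt and gst gene families, both expanded in tandem arrays, with the intestine as a main site of expression. Many of their genes respond to electrophiles, metals or foreign compounds through the transcription factor SKN-1, the aryl hydrocarbon receptor AHR-1 and nuclear hormone receptors, and conjugates leave the cell through ABC transporters.

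The genes described here were chosen by name alone, as every gene whose WormBase symbol begins with ugt- or gst-. There were 109 of them, 65 ugt genes and 44 gst genes, of the 24619 genes in the deposited tables. The names table lists 111 such symbols, 67 ugt and 44 gst; ugt-9 and ugt-51 were not analysed here. All 109 are annotated as protein coding.

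The libraries were made from poly-A RNA of whole young adult worms, in 4 groups with 3 libraries each. Wild-type animals were strain N2. The adr-2(-) animals were strain BB20 with the allele adr-2(ok735); adr-2 encodes the editing enzyme that converts adenosine to inosine in double-stranded RNA. Each genotype was fed from hatching on bacteria carrying either the empty vector (control RNAi) or a vector against sqd-1, an hnRNP-type RNA-binding protein gene. The growth protocol gives 72 h of growth and the series design 60 h. The labels do not say that the libraries of a group came from separate cultures, so p-values measure the spread between these libraries, which may be technical.

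Libraries held 29042770 to 33984832 reads, of which 28.97% to 57.8% fell on ribosomal RNA genes. The targeted gene was lower in every sqd-1 RNAi library: sqd-1 stood at 14173 ± 1724 normalized reads (SD, n = 3) in wild-type control animals and 1376 ± 22.3 on sqd-1 RNAi, while adr-2(-) libraries stood at 20538 ± 9341 and 1455 ± 419. No adr-2(-) library held more than 4 reads of adr-2, against 331 to 956 reads in wild-type libraries. In wild-type, adr-2 was itself lower on sqd-1 RNAi, at 394 ± 80.6 normalized reads against 884 ± 110 on control, with ranges that did not overlap. Whole animals were sequenced, so fewer cells of a type and less RNA per cell cannot be told apart in any value below. Among 41 marker genes of 7 cell types, none was at 0 in any library.

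The level of each gene was first set beside that of its family in wild-type animals on control RNAi, as normalized reads per kilobase of exon, the scale on which different genes can be compared. A few genes supplied most of the gst signal. The highest was gst-1, at 4322 ± 489 normalized reads per kb (SD, n = 3), which was 26.5% of the family's summed level. It was followed by gst-10, whose product conjugates the lipid peroxidation product 4-hydroxynonenal, at 2015 ± 116, by gst-13 at 1733 ± 315, gst-7 at 1646 ± 106 and gst-27 at 1029 ± 101. Together these 5 genes made up 65.8% of the family. Neither gst-10 and gst-13 nor gst-13 and gst-7 differed beyond their spread, whereas gst-27 lay below gst-7 by more than it. The gene gst-4, widely used as a reporter of SKN-1 activity, ranked sixth at 765 ± 107. The ugt family was more evenly spread. Its highest genes were ugt-62 at 2008 ± 278 normalized reads per kb, 14.9% of the family, ugt-61 at 1320 ± 293, ugt-22 at 1010 ± 73.7, ugt-47 at 972 ± 86.9 and ugt-41 at 724 ± 95.7, which made up 44.7% in all. Of these, ugt-22 and ugt-47 did not differ beyond their spread, and the mean of ugt-61 lay above that of ugt-22 by little more than its own SD.

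**Figure D1:**
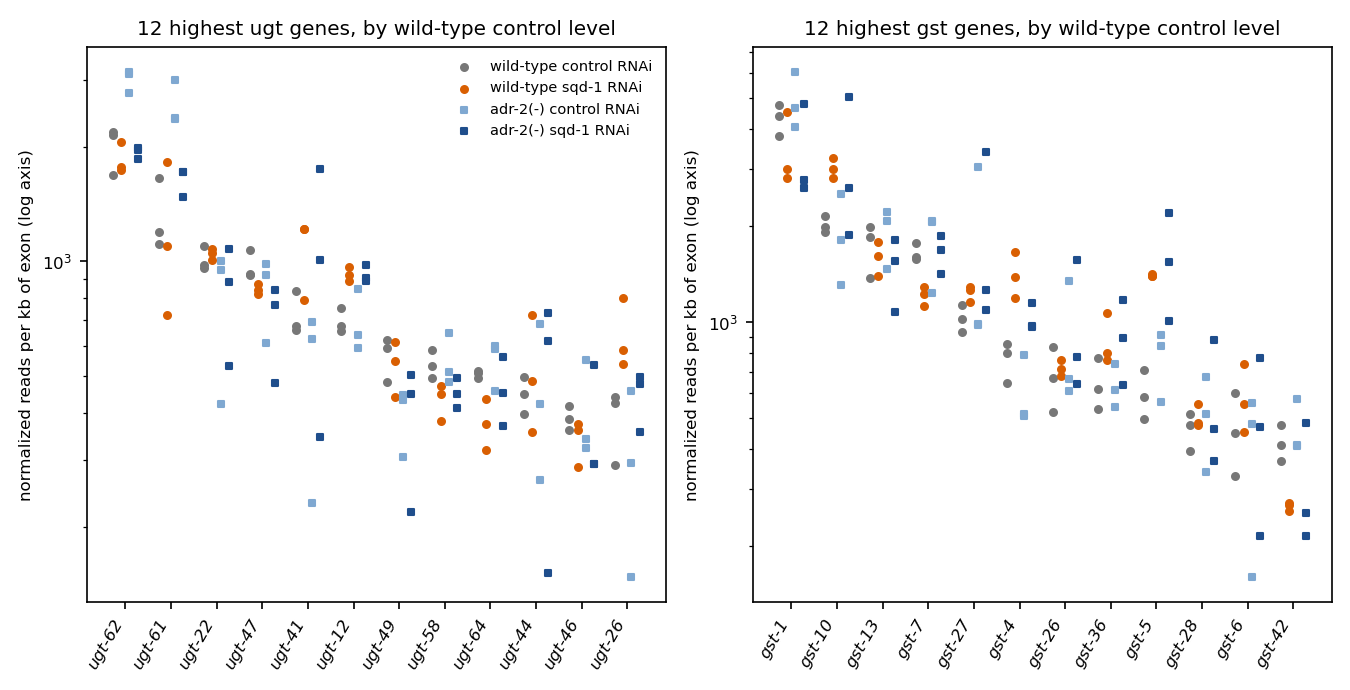
Level of the 12 highest ugt genes (left) and gst genes (right), ranked by their wild-type control mean, as normalized reads per kilobase of exon on a log axis, with 1 point per library and 3 libraries per group. Levels in the adr-2(-) libraries (squares) spread further than those in wild-type (circles) for genes such as ugt-41 and gst-27.

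The tests covered genes with a mean of at least 10 normalized reads over the 6 libraries of a comparison. This left 57 ugt and 33 gst genes for wild-type animals and 53 and 33 for adr-2(-) animals. Over the 5 pairwise comparisons 83 members passed in every one and 19 in none, 8 ugt and 11 gst. A gene was called when its limma p-value, adjusted by the Benjamini-Hochberg method over all genes of the table, was under 0.05. Fold changes are from limma, on the log2(normalized reads + 1) scale, unless edgeR is named. Those of genes with few reads thus depend on the added 1 and on single libraries near 0. They can be smaller or larger than the ratio of the group means.

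In wild-type animals, many members of both families were higher on sqd-1 RNAi and few were lower. Of the 90 genes tested, 29 rose and 4 fell. Over all 14489 genes tested 61.1% were called, 27.3% higher and 33.8% lower; among the ugt and gst genes 36.7% were called, 32.2% higher and 4.44% lower. Their share of rises was thus near the background, and their share of falls was below it. In the ugt family 19 genes rose and 2 fell of 57, and in the gst family 10 rose and 2 fell of 33. The median log2 fold change was 0.48 for ugt and 0.47 for gst genes, against 0.04 for all genes tested. The libraries of the groups did not overlap for 43 of the 90 members, against 68.2% of all genes tested, and for 31 of the 33 called. The families' summed levels, on the common scale of all 12 libraries, differed less. The ugt sum was 24341 ± 760 normalized reads in control and 28021 ± 1710 in sqd-1 RNAi libraries, with ranges that did not overlap, and the gst sum was 12297 ± 1293 and 14183 ± 1228, with ranges that did. In adr-2(-) animals the ugt sum was 27146 ± 422 in control and 26950 ± 3159 in sqd-1 RNAi libraries, and the gst sum 13711 ± 3219 and 15347 ± 5856, with ranges that overlapped for both families.

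**Figure D2:**
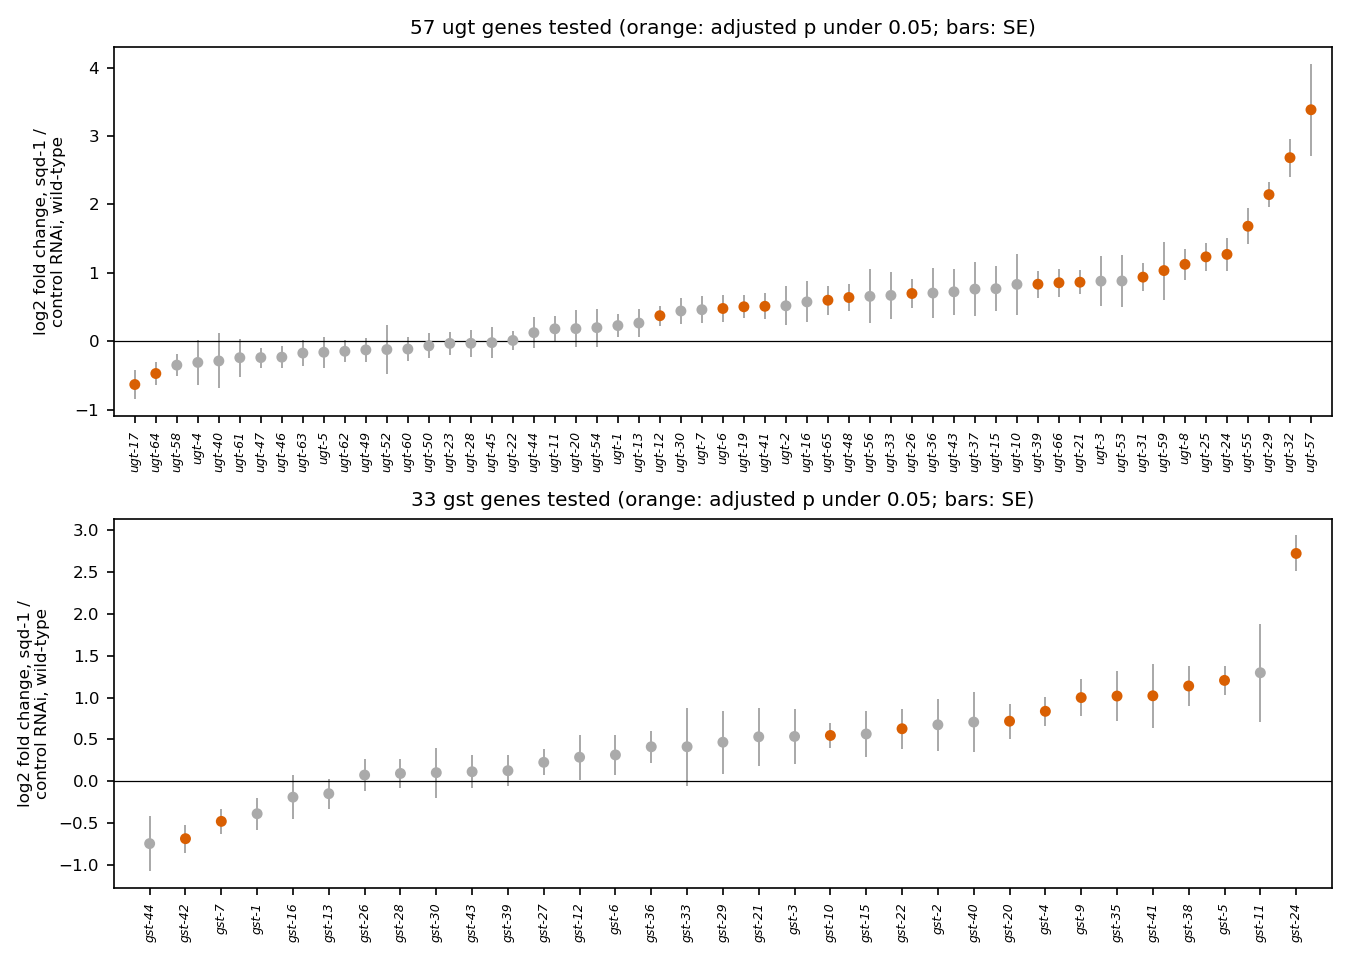
Log2 fold change of each tested ugt gene (top, 57) and gst gene (bottom, 33) between sqd-1 and control RNAi in wild-type animals, ordered by size, with bars of 1 SE. The 33 called genes are in orange: 29 above the zero line and 4 below it, among many uncalled genes between -0.5 and 1.

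The clearest rise among ugt genes was that of ugt-29 (chromosome V, 696524 to 699589, WBcel235). Its control libraries held 326, 374 and 378 normalized reads and its sqd-1 RNAi libraries 1256, 1861 and 1709. Every treated library was far above every control, with a log2 fold change of 2.14 ± 0.178 (SE, limma adjusted p = 2.2e-06). In ugt-25 the values were 259, 151 and 233 on control and 490, 541 and 451 on sqd-1 RNAi, a log2 fold change of 1.23 ± 0.207. On the opposite strand ugt-25 overlaps mlst-8, which fell by 1.31 on the log2 scale. A lower-level gene, ugt-24, went from 60.3, 41.9 and 57.4 to 114, 111 and 166 normalized reads, without overlap.

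Smaller rises were shared by ugt-31, ugt-21, ugt-66, ugt-39 and ugt-26, with log2 fold changes from 0.70 for ugt-26, whose call was lost without control replicate 1, to 0.94 for ugt-31. In ugt-21 the replicates were tight, at 124, 120 and 127 normalized reads on control and 209, 231 and 238 on sqd-1 RNAi. Among genes under 100 normalized reads, picked out after their values were seen, ugt-32 rose from 12.3, 10.8 and 11.7 to 81.7, 96.7 and 64.1, a log2 fold change of 2.68 ± 0.276 (SE, limma adjusted p = 5.6e-06). The largest fitted value in either family belonged to ugt-57, at 3.38 ± 0.672, but it rests on 0, 2.7 and 3.59 normalized reads in control against 10.5, 31.9 and 50.2. That call was lost when sqd-1 RNAi replicate 3 was left out.

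The most strongly raised gst gene was gst-24 (chromosome II, 13610443 to 13611366). It stood at 35.8, 39.2 and 47.5 normalized reads in control libraries and at 250, 238 and 344 on sqd-1 RNAi, a log2 fold change of 2.72 ± 0.216 (SE, limma adjusted p = 1.9e-06). The groups were far apart. In gst-5 the control values of 367, 448 and 544 became 1041, 1034 and 1023, a log2 fold change of 1.21 ± 0.172. The overlapping opposite-strand gene nos-1, a translational regulator of the germ line, fell by 2.52, so the pair moved in opposite directions. In gst-38 the control libraries ran from 94.1 to 201 and the treated ones from 300.3 to 332. In gst-9 the control libraries ran from 72.9 to 108 and the treated ones from 146 to 222, with a log2 fold change of 1.00 ± 0.221; its opposite-strand neighbour msp-33, a sperm protein gene, rose by 0.94. Whether the authors' counting used the strand is not stated in the sources used here. The levels of gst-9, gst-5 and ugt-25 may thus hold reads of the genes they overlap, which cannot be separated here. Of these partners, msp-33 rose with gst-9, whereas nos-1 and mlst-8 fell while gst-5 and ugt-25 rose. The part of partner reads in these values was not tested.

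The more abundant gst genes changed less. In gst-4, 594, 501 and 659 normalized reads became 1230, 893 and 1017, a log2 fold change of 0.84 ± 0.175 (SE, limma adjusted p = 0.0010), with no overlap. It overlaps dhs-12 on the same strand, which fell by 0.50, and the strand would not separate reads where these genes overlap. In gst-10 the values were 1455, 1461 and 1631 on control and 2069, 2218 and 2355 on sqd-1 RNAi, a log2 fold change of 0.55 ± 0.147. The other called rises with at least 100 normalized reads in the higher group were gst-20 at 0.72 and gst-22 at 0.63, and the call of gst-22 was lost without control replicate 1 or 3, without sqd-1 RNAi replicate 1 and with the replicate block (limma adjusted p = 0.0583).

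The 4 falls were small. The largest was that of gst-42, the homologue of the zeta-class enzyme that acts as maleylacetoacetate isomerase in tyrosine breakdown: 382, 446 and 511 normalized reads became 265, 283 and 275, a log2 fold change of -0.69 ± 0.170 (SE, limma adjusted p = 0.0032). The remaining falls were ugt-17 at -0.63, gst-7 at -0.48 and ugt-64 at -0.47. In gst-7 the control libraries held 1214, 1398 and 1240 normalized reads and the treated ones 851, 938 and 967. Calls were lost for ugt-17 without control replicate 1 or sqd-1 RNAi replicate 3, for gst-7 without control replicate 2, and for ugt-64 without control replicate 2 or 3 or sqd-1 RNAi replicate 1 or 3. With TMM scaling in limma the calls of ugt-17 and ugt-64 were lost, with upper-quartile scaling that of ugt-17, and gst-7 was called under both. With edgeR, where both the test and the scaling differ and the median of all genes was higher by 0.20, none of these 3 was called, 44 members were called higher and 1, gst-42, lower (background 64.8%, with 36% higher and 28.8% lower).

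Of the 5 highest genes of each family, ugt-41, gst-10 and gst-7 were called. In ugt-41 the control values of 1524, 1288 and 1255 normalized reads became 2212, 2242 and 1434, with overlap and a log2 fold change of 0.51 ± 0.189 (SE, limma adjusted p = 0.0317); the call was lost without control replicate 2 or 3 or sqd-1 RNAi replicate 1 or 2. The other 7 were not called. The values of ugt-22 were 2475, 2256 and 2297 normalized reads on control and 2367, 2458 and 2252 on sqd-1 RNAi, a log2 fold change of 0.01 ± 0.143. In gst-1, 2902, 3491 and 3785 became 2153, 2308 and 3424, with overlap and a log2 fold change of -0.39 ± 0.191 (SE, limma adjusted p = 0.0916; with the replicate block 0.0175). The log2 fold changes of ugt-62 (-0.15), ugt-47 (-0.24), ugt-61 (-0.24), gst-13 (-0.15) and gst-27 (0.22) were not called. In ugt-61 the treated libraries ranged from 1284 to 3270 normalized reads, wider than the control range of 1992 to 3094.

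**Figure D3:**
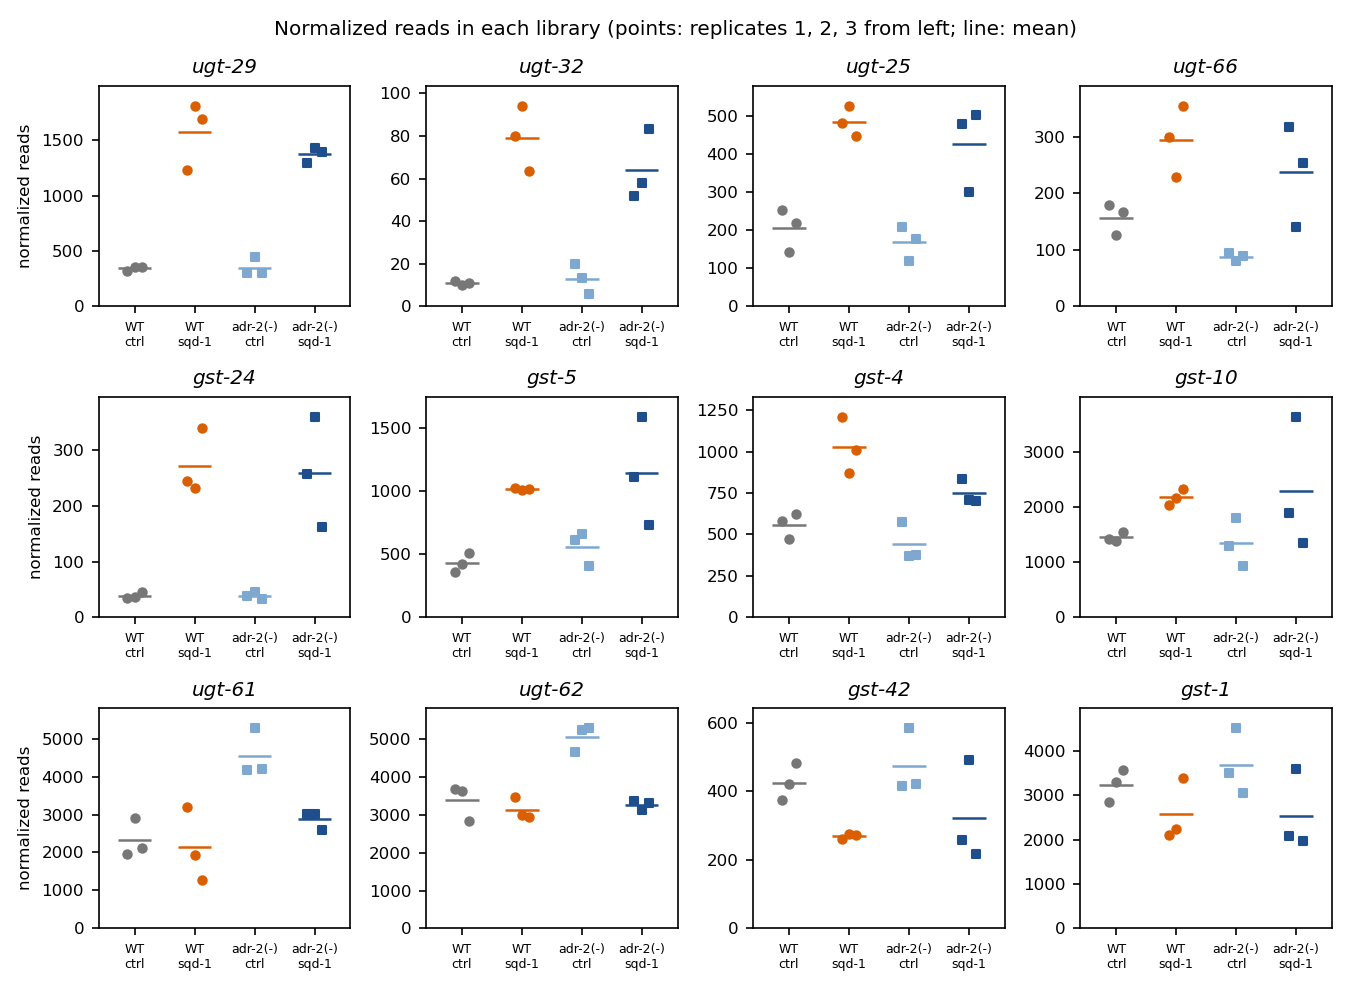
Normalized reads on the common 12-library scale of 12 members in each of the 12 libraries, with the group mean as a line and the axis starting at 0. In ugt-29 and gst-24 the sqd-1 RNAi libraries of both genotypes lie above all control libraries, whereas ugt-61 and ugt-62 are highest in the adr-2(-) control libraries.

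The wild-type calls rest on 3 libraries a group. When each of the 6 libraries was left out in turn, the count of called members ranged from 27 to 32, and the share of all genes called from 53.6% to 59.2%. Of the 33 calls, 19 were kept in all 6 of those fits and 14 were lost in at least 1. With the replicate number as a block 42 members were called, 36 higher and 6 lower (background 65.8%, with 29.7% higher and 36.1% lower), and 30 of the original 33 were among them. A fit of all 12 libraries together, whose spread comes from the adr-2(-) libraries too, called 12 of 87, which is 13.8%, against 34.6% of all genes. The 9 calls kept under every alternative were gst-24, gst-4, gst-5, gst-9, ugt-21, ugt-24, ugt-25, ugt-29 and ugt-66. A gene that a stricter filter left untested counts as lost here. That was so for ugt-32 under a filter of a mean of at least 50, and it was called under every other alternative. The authors' deposited table for this comparison calls 19 of 63 ugt genes with an adjusted p, 17 higher and 2 lower. It calls 11 of 41 gst genes, 9 higher and 2 lower. Over all genes with an adjusted p there, 47.7% were called in either direction.

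Markers of other tissues moved with sqd-1 RNAi in the same wild-type libraries, where 27.3% of all genes were called higher and 33.8% lower. All 7 oocyte markers fell, with a summed level of 70570 to 99915 normalized reads in control and 6751 to 17453 in treated libraries. All 6 sperm markers rose, from a sum of 2283 to 3003 to a sum of 6178 to 8411, and 4 of 5 germ cell markers fell. Of 6 muscle markers 5 rose, from a sum of 76547 to 99137 to a sum of 119993 to 127663. Of 4 hypodermis markers 3 rose and 1 fell, with sums of 20807 to 25202 and 17750 to 22297, and of 5 neuron markers 3 rose and 1 fell, with sums of 2661 to 2917 and 3010 to 3166. The intestine markers stayed close: 1 of 8 rose and none fell, with sums of 24168 to 29830 on control and 25173 to 27453 on sqd-1 RNAi. The part of any change in the makeup of the animals in the ugt and gst values was not tested.

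The members sit in arrays, and the calls were spread through them. With gaps of at most 10000 bases between neighbours, 61 members fell into 15 clusters, 36 ugt genes in 11 and 25 gst genes in 4. Chromosome V holds 42 of the 67 ugt genes and chromosome II 25 of the 44 gst genes. A called rise occurred in 10 of the 15 clusters. Of the 33 wild-type calls 16 lay in clusters. So did 61 of all 109 members, a count that includes members too low to be tested, so these shares cannot be compared. The cluster of gst-6, gst-7, gst-8 and gst-9 on chromosome II (4879891 to 4893573, WBcel235) was the only one of the 15 with calls in both directions, gst-9 higher and gst-7 lower. In the 9-gene cluster that holds gst-24 (chromosome II, 13608154 to 13630887), 5 genes were tested and their log2 fold changes ran from -0.19 to 2.72, with gst-20 and gst-24 called. Genes of 1 array can be near copies whose reads the counting may have split, so values of neighbours are not independent. A gene on the opposite strand overlaps 19 members.

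Among listed genes of related pathways, calls went in both directions. Over all genes tested in wild-type 61.1% were called, 27.3% higher and 33.8% lower. That is the background for the list counts here and in the next paragraph. Both genes listed for UDP-glucuronate supply fell in wild-type. The UDP-glucose dehydrogenase gene sqv-4, whose product makes UDP-glucuronate, fell by 1.54 on the log2 scale, and sqv-7, a nucleotide-sugar transporter gene, by 1.17. Which sugar donor the ugt enzymes use was not tested. Of 16 genes for glutathione synthesis and reduction, 1 rose and 5 fell. The rise was gpx-8, a glutathione peroxidase homologue, from 18.8 ± 8.89 to 148 ± 32.7 normalized reads, a log2 fold change of 2.98 ± 0.320. The falls were gss-1 (glutathione synthetase, -0.90), gsr-1 (glutathione reductase, -0.81), glrx-21 (-0.71), glrx-3 (-0.45) and gpx-2 (-0.45). The rate-limiting enzyme gene gcs-1, a target of SKN-1, stood at 1831 to 2080 normalized reads in control and 1455 to 1671 in treated libraries, and its log2 fold change of -0.33 ± 0.149 was not called.

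Of 4 tested omega and kappa class glutathione transferases none was called by limma (2 at an unadjusted p under 0.05; edgeR called 2). Among 16 regulators 1 rose, ahr-1 (1.13 ± 0.212), and 5 fell: nhr-86 (-0.85), nhr-49 (-0.73), skn-1 (-0.72), the SKN-1 repressor gene wdr-23 (-0.52) and the Mediator subunit gene mdt-15 (-0.49). The medians were -0.27 for glutathione synthesis and -0.19 for the regulators, against 0.04 for all genes. Of 20 ABC exporters tested 6 rose, led by pgp-8 (2.06 ± 0.199) and pgp-4 (1.14 ± 0.187), and 4 fell, led by mrp-4 (-2.37 ± 0.291).

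In adr-2(-) animals the fold changes of most members had the same sign as in wild-type, as did those of most genes, and the libraries of a group spread further. No member was called by limma without pairing (16 of 86 tested at an unadjusted p under 0.05, against 21.2% of all genes). Over all genes 0.0284% were called. By edgeR 0 members were called, against 0.0213% of all genes, and by DESeq2 6, against 10.2%: gst-24, gst-9, ugt-25, ugt-29, ugt-32 and ugt-66. Within this genotype, libraries of the same replicate number deviated together, and with the replicate number as a block 26 members rose and 5 fell. That is 36.0% of those tested, against 45.6% of all genes, 17.1% higher and 28.5% lower. These were 17 ugt genes higher and 3 lower of 53, and 9 gst genes higher and 2 lower of 33. The medians were 0.34 for ugt and 0.32 for gst genes, against -0.03 for all genes. The libraries did not overlap between groups for 23 of the 86 members, against 28.6% of all genes. All adjusted p-values for adr-2(-) in the next paragraphs come from limma with this block.

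In ugt-29 the adr-2(-) control libraries held 288, 405 and 272 normalized reads and the sqd-1 RNAi libraries 1177, 1381 and 1365, a log2 fold change of 2.04 (adjusted p = 0.0078; without the block 0.0627). In gst-24, 37.3, 41.2 and 30.0 became 233, 347 and 159, a log2 fold change of 2.68 (adjusted p = 0.0078; without the block 0.0627). Both were without overlap and close to their wild-type values. In gst-4, 549.7, 340 and 345 became 758, 684 and 689.5, a log2 fold change of 0.82 (adjusted p = 0.0126; without the block 0.197). In gst-5, 581, 604 and 373 became 1013, 1530 and 716 (1.03), and in ugt-66, 89.9, 73.8 and 81.8 became 289, 136 and 248 (1.38). All of these libraries rose within their pair. Further rises of at least 100 normalized reads without overlap were ugt-25, ugt-31, gst-9, gst-20, ugt-7, ugt-30, ugt-21 and ugt-12, with log2 fold changes from 0.46 for ugt-12 to 1.37 for ugt-25 and ugt-31.

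The members that fell in adr-2(-) were mostly abundant ones. In ugt-62 the libraries went from 4456, 4816 and 4849 normalized reads to 3049, 3026 and 3256, a log2 fold change of -0.60 (adjusted p = 0.0095; without the block 0.219). In ugt-61 they went from 3983, 4837 and 3840 to 2747, 2915 and 2550 (-0.62), and in ugt-63 from 609, 796 and 627 to 360, 534 and 393 (-0.67). None of these 3 overlapped between groups. The other falls were gst-42 (-0.59) and gst-1 (-0.54), whose groups overlapped but whose 3 pairs each fell. With both libraries of pair 2 left out, an alternative chosen after seeing the data, 19 of 85 members were called, which is 22.4%, against 39.8% of all genes. All 31 kept their sign, as did 100% of all genes called with the block and tested there.

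Without the block limma called 0 of the cell type markers in adr-2(-), with 6 oocyte, 5 sperm and 3 germ cell markers at an unadjusted p under 0.05. EdgeR also called 0, and DESeq2 called 5 of 6 sperm markers higher and 1 oocyte and 1 germ cell marker lower. With the block, limma called 17.1% of all genes higher and 28.5% lower. In that fit all 7 oocyte and all 5 germ cell markers fell, all 6 sperm and 5 of 6 muscle markers rose, and of 8 intestine markers 1 rose. The part of this in the ugt and gst values was not tested. In the gene lists, with the same fit and background, sqv-4 (-0.68) and sqv-7 (-0.61) fell. In glutathione synthesis and reduction gpx-8 rose (2.45), and gss-1, gsr-1, glrx-3 and glrx-21 fell. Among the regulators ahr-1 rose (1.76) and skn-1, wdr-23, mdt-15, nhr-49 and nhr-86 fell; among 20 exporters 4 rose and 3 fell; and of the 4 omega and kappa class genes gsto-1 fell (-0.68).

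Of the 86 members tested in both genotypes, 79 had the same sign, which is 91.9%, against 92.1% of all genes. So did all 32 of the wild-type calls tested in adr-2(-), against 99.4% over all genes. These comparisons share no library. There were 20 genes called in both, 60.6% of the wild-type calls and 64.5% of those in adr-2(-) with the block; over all genes these shares were 69.5% and 95.9%. With the block in both genotypes 27 of the 86 were called in common, which is 31.4%, against 44.7% of all genes, and in both sets all such genes had the same direction. The sign agreement of the members was thus near the background, and their shares called in both were below it. Across the 86 genes the fold changes had a Pearson r of 0.812 and a Spearman rho of 0.848, against 0.905 and 0.945 over all genes; this is across genes, which share libraries and are not independent replicates.

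**Figure D4:**
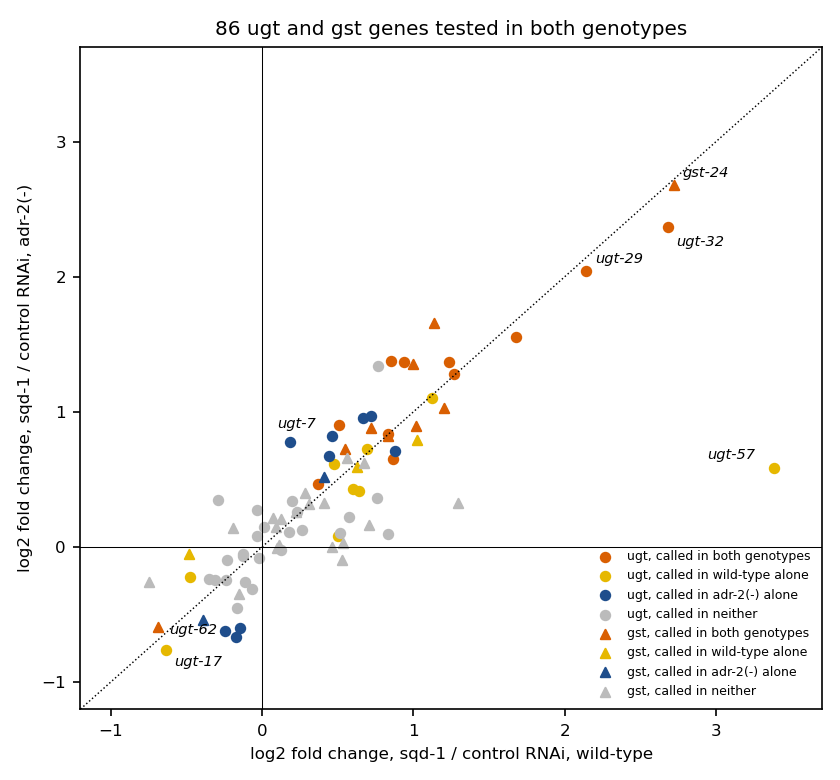
Log2 fold change on sqd-1 RNAi in wild-type (horizontal) and adr-2(-) (vertical) of the 86 members tested in both, circles for ugt and triangles for gst, coloured by limma calls (with the replicate block for adr-2(-)), with a dotted line of equal change. Most points lie in the same quadrant in both genotypes, and ugt-57 lies far below the line, at 3.38 and 0.59.

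A difference between the genotypes in this response (adr-2(-) minus wild-type) was tested over all 12 libraries. No member was called for the interaction by limma (1 of 87 at an unadjusted p under 0.05, against 1.44% of all genes), by edgeR (1 at an unadjusted p under 0.05, against 1.9%) or by DESeq2 (1, against 1.82%). None of the 14348 genes tested was called either, so 0% is also the background. With pairs blocked within each genotype again 0% of members and of all genes were called, with 4 members at an unadjusted p under 0.05, against 9.95% of all genes: ugt-63, ugt-62, ugt-57 and ugt-2. In ugt-62 the log2 changes of the 3 pairs were -0.092, -0.28 and 0.042 for wild-type animals and -0.47, -0.74 and -0.68 for adr-2(-) animals, an interaction of -0.52 ± 0.144 (SE, adjusted p = 0.224 with the block). In ugt-57 the wild-type pairs gave 3.5, 3.18 and 3.53 and the adr-2(-) pairs 2.64, 0.86 and -1.83, from group means of 30.3 normalized reads or less. For ugt-29 and gst-24 the interactions were -0.18 ± 0.297 and -0.12 ± 0.427 (SE, without the block).

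Loss of adr-2 by itself called no member. On control RNAi limma called 0 of 83 tested, with 5 at an unadjusted p under 0.05 (7.43% of all genes), edgeR 0 and DESeq2 0; 0.00737% of all genes were called by each. The groups did not overlap for 9 members, against 13.9% of all genes. The smallest p-values belonged to ugt-61, ugt-66 and ugt-62. In ugt-61 the wild-type libraries held 1806, 2649 and 1993 normalized reads and the adr-2(-) libraries 3890, 4550 and 3633, without overlap, a log2 difference of 0.92 ± 0.209 (SE, limma adjusted p = 0.60). In ugt-66, 165, 115 and 158 stood against 87.8, 69.4 and 77.4, a log2 difference of -0.88 ± 0.258. In ugt-62, 3419, 3297 and 2698 stood against 4352, 4531 and 4588 (0.52 ± 0.176). None of these differences passed adjustment over all genes. These control libraries are the same that enter the falls of ugt-61 and ugt-62 on sqd-1 RNAi in adr-2(-).

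On sqd-1 RNAi limma called 0 of 90 between the genotypes, with 3 at an unadjusted p under 0.05 (ugt-3, ugt-8 and ugt-59; 12.1% of all genes), edgeR 0 and DESeq2 0. Limma and edgeR called 0% of all genes and DESeq2 1.72%. The groups did not overlap for 16 members, against 24.7% of all genes. In gst-4 the wild-type libraries held 1316, 913 and 1081 normalized reads and the adr-2(-) libraries 878, 761 and 744, without overlap, a log2 difference of -0.46 ± 0.224 that was not called. In ugt-8 the values were 90.7, 85.5 and 105 against 59.7, 39.4 and 36.3, a log2 difference of -1.07 ± 0.294 that was not called either.

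In adr-2(-) animals on sqd-1 RNAi against wild-type on control RNAi, 1 of 85 members was called, against 0.0422% of all genes. This was ugt-29, at 316, 344 and 355 normalized reads in wild-type control and 1244, 1426 and 1378 in the other group, a log2 difference of 1.99 ± 0.194 (SE, limma adjusted p = 0.0401). In all, 12 of the 85, ugt-29 among them, had an unadjusted p under 0.05, against 15.9% of all genes. Leaving out replicate 2 of the adr-2(-) sqd-1 RNAi group raised the count to 9 of 85, which is 10.6%, against 13.1% of all genes. Leaving out any other library lowered it to 0, against at most 0.0282% of all genes. The call was also lost with the replicate block, which called 0% of all genes, although same-numbered libraries of different genotypes did not consistently deviate together. By edgeR gst-24 and ugt-32 were called too, against 1.37% of all genes, and by DESeq2 also gst-5 and gst-20, against 6.22%. The groups did not overlap for 18 members, against 26.2% of all genes.

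The spread in adr-2(-) had a direction that differed between the families. Replicate 2 was the highest of the 3 replicates in both RNAi conditions for 21 of 33 gst genes, 63.6% against 31.7% of all genes, and the lowest in both for none. For ugt genes it was the lowest in both for 27 of 54, 50% against 28.6% of all genes. It was the highest in both for 10 of the 54, 18.5% against 31.7%. Replicate 3 was the lowest in both for 16 of the 33 gst genes, 48.5% against 18.5%. The clearest cases were gst-27, at 701, 2072 and 666 normalized reads on control and 736, 2435 and 918 on sqd-1 RNAi, and ugt-41, at 1066, 379 and 1132 and at 1641, 598 and 3074, both picked out after their values were seen. The summed intestine markers stood at 43950 and 43750 normalized reads in the 2 libraries of replicate 2 and at 16365 to 24552 in the other adr-2(-) libraries. Sums of the hypodermis and neuron markers were also highest in replicate 2, at 41797 and 38292 against 18632 to 25207 and at 4345 and 5696 against 2700 to 3228. The oocyte sum was highest in replicate 2 as well, at 174688 against 88085 and 133105 on control and at 74226 against 25475 and 59766 on sqd-1 RNAi. Germ cell, sperm and muscle sums were not highest there in both conditions. For germ cells it held 30195 against 27055 and 38335 on control, and 13352 against 16381 and 24212 on sqd-1 RNAi. For sperm it held 1944 against 2117 and 857, and 6757 against 7118 and 6852. For muscle it held 88950 against 95342 and 71354, and 162122 against 145308 and 109371. In wild-type, replicate 3 was the highest in both conditions for 13 of 33 gst genes, 39.4% against 13.7% of all genes. It was the lowest in both for 15 of 54 ugt genes, 27.8% against 14.9%, and the highest in both for 10, 18.5% against 13.7%. Its median log2 distance from the other wild-type replicates was 0.16 for gst and -0.015 for ugt genes. For adr-2(-) replicate 2 these medians were 0.62 and -0.51. The part of tissue makeup in these deviations was not tested.

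**Figure D5:**
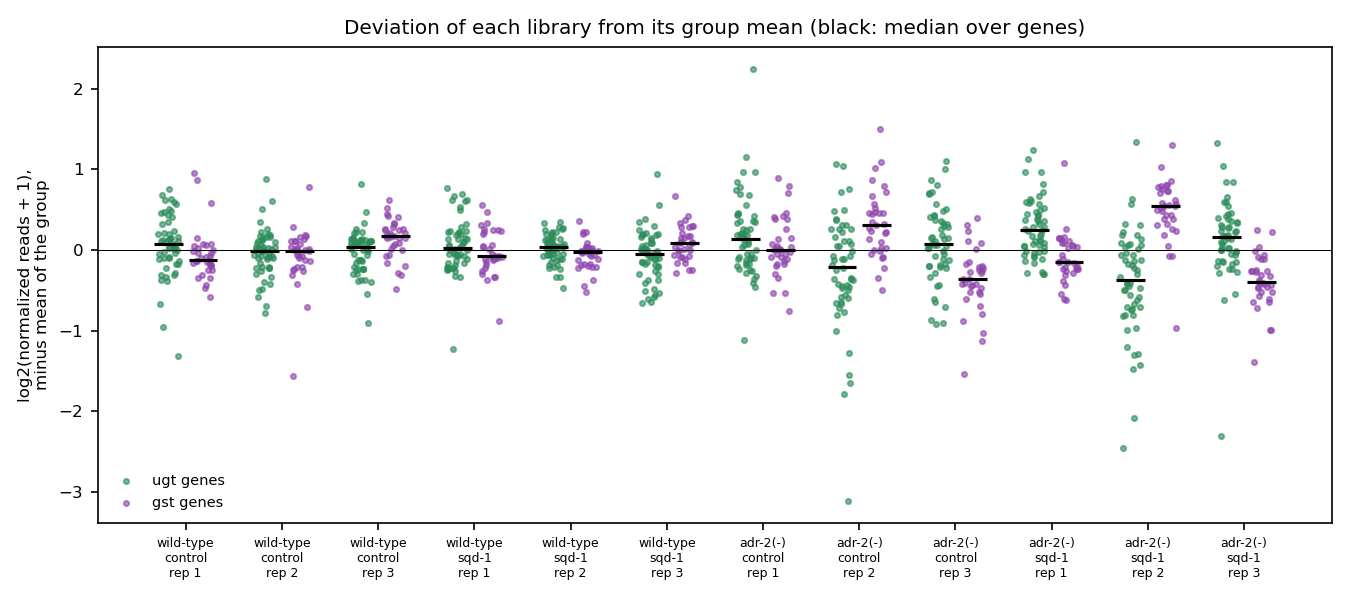
Deviation of each library from its group mean, in log2(normalized reads + 1), for the ugt genes (green) and gst genes (purple) tested over all 12 libraries, with the median over genes in black. In adr-2(-) replicate 2 the median of the gst genes lies above and that of the ugt genes below the group mean in both RNAi conditions. Single ugt genes lie on either side, and the wild-type libraries lie closer to 0.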

How the data were processed

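Whole-worm poly-A libraries were made with a stranded kit, per the labels' protocols. STAR 2.7.10b and DESeq2 are named, with no role, in the submitters' processing notes; genome build, annotation and counter are not given in the sources used here. The 5 deposited tables each hold 2 groups, and their signal values step like the authors' read counts divided by a size factor per library and table, so levels from different tables are on different scales. Whole reads were recovered from them: 100% of 667263 values were whole multiples of 1 read (tolerance 0.01 reads), 1 read being worth 0.710 to 1.72. Per the file headers, the authors' log2 fold changes, test scores (Wald statistics), p-values and adjusted p-values come with them and are quoted only as theirs.

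Tests used limma 3.58.1 with a mean-variance trend (R 4.3.3) on log2(value + 1), for genes with a mean of at least 10. Adjustment was by Benjamini-Hochberg over all genes. The script was run on simulated reads in which few genes changed and replicates shared no effect. These data differ in both, so that run does not show how the fits behave on them. The interaction was fitted to all 12 libraries on 1 median-of-ratios scale, which also gives the levels per kb. Alternatives were edgeR 4.0.16 and DESeq2 1.42.0 on recovered reads, other scalings, filters and pseudocounts, leaving out each library, and the replicate block. The labels state no pairing of replicate numbers, so the main fits had no block. Same-numbered libraries' deviations correlated at 0.244 to 0.269 in wild-type and 0.632 to 0.819 in adr-2(-), and between genotypes at -0.517 to 0.205. Pairing within a genotype is inferred from these correlations, in the same libraries that were then tested.

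Named genes are gst-4, gst-1, gst-10, ugt-22 and ugt-29, the 5 highest per kb of each family, and the up to 8 largest called rises and falls per family with a mean of at least 100 and no overlap between groups; where fewer than 3 were called, those of smallest p. Members and gene lists were chosen with earlier results of these data known, so their calls are a description and no independent support. Names came from the gene names table; positions and overlaps from the WBcel235 annotation, matched by gene ID. Sequences were not used here, so the promoter words planned were not searched.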

Additional observations from a re-analysis of the deposited data

How the results depend on the processing

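The counts of called members in wild-type stayed within 1.5 times of 33 under other scalings, filters, pseudocounts, edgeR, DESeq2, the replicate block (42) and each left-out library (27 to 32), and fell to 12 in the fit of all 12 libraries. In adr-2(-) the count was 0 without pairing, with each library left out and by edgeR, 2 with a pseudocount of 10 (2.86% of all genes), 6 by DESeq2, 13 in the fit of all 12 libraries (22% of all genes), 31 with the replicate block and 19 with that block but without both libraries of pair 2. For adr-2(-) sqd-1 RNAi against wild-type control RNAi it was 1, with 3 by edgeR, 5 by DESeq2, 4 in the fit of all 12 libraries (1.73% of all genes), 0 with the replicate block and 0 to 9 with a library left out; the causes were not tested. The replicate block changed no call in the comparisons of genotypes on 1 RNAi or in the interaction, where the count was 0 under every alternative run. Uncalled values near 0 changed sign. In wild-type, edgeR gave 0.040 for gst-13, 0.057 for ugt-61, 0.057 for ugt-62 and 0.023 for ugt-63, and upper-quartile scaling 0.0059 for gst-13 and 0.0087 for ugt-62; with a library left out, ugt-22 ranged from -0.020 to 0.051 and ugt-61 from -0.59 to 0.087. In adr-2(-), edgeR gave 0.042 for gst-7, and left-out libraries gave -0.31 to 0.095 for gst-7, -0.27 to 0.79 for gst-27, -1.59 to 0.45 for ugt-17 and -0.27 to 0.43 for ugt-22. Left-out libraries gave -0.24 to 0.045 for ugt-29 between genotypes on control RNAi, and -0.20 to 0.12 for gst-4 and -0.34 to 0.012 for ugt-29 in the interaction. TMM and upper-quartile scaling raised the median of all genes in wild-type by 0.14 and 0.16, and the calls to 38 higher and 2 lower (62.5% of all genes called) and to 38 higher and 3 lower (63.8%). The 19 members under the filter in every comparison were too shallow to test.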
